A study of Mus musculus with 7 samples.

Results

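The cells described are basal epithelial cells of 2 male FVB/NJ mice, a young mouse of 3 months and an old mouse of 18 months, both wild type and both kept on diet 3156. Ages and diets come from the study's list of animals, and were matched to the libraries by strain and title, since the sample labels give neither. They were chosen by a rule on each cell's own counts in the single-cell libraries of these 2 mice. A cell was a member where it had at least 500 genes, at most 10% mitochondrial UMIs (unique molecular identifiers, one for each captured RNA molecule), a UMI of at least 2 of *Krt5*, *Krt14*, *Krt15* and *Trp63*, and no UMI of *Ptprc* or *Pecam1*. The rule found 2364 cells in the young and 1878 in the old mouse, 4242 of the 40342 cells of the whole series that passed the same limits on genes and mitochondrial UMIs. It is named the basal gate below, and the levels of its 4 marker genes are descriptions, since they chose the cells.

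The series profiled tissue labelled seminal vesicle from mice of several ages and diets by droplet single-cell RNA sequencing, with enzymatic dissociation before capture. Beside the young and the old mouse, the comparisons use 3 single-mouse libraries of FVB/NJ males of 3 months, named here the diet individuals, fed the control diet 3156, the high fat diet 3282 or the low protein diet 4579, with 1 mouse each. As an alternative they use a pool of 8 FVB/NJ mice of 3 months on control, high fat, low protein and calorie-restricted diets. A pool of 10 C57BL/6J mice on chow diet, named the aging pool, serves for values in the closing observations only. It held mice of 3, 20 and 28 months, some of the older ones treated for a time with rapamycin. All were wild-type males. There was 1 mouse per age, so age and the individual mouse cannot be told apart, and no test of age was made.

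Basal cells lie under the luminal cells of a pseudostratified or bilayered epithelium and hold it to the basement membrane. They make keratins 5 and 14 and the transcription factor p63 (*Trp63*), which maintains basal identity, and they anchor through hemidesmosomes, in which integrin alpha 6 beta 4 and collagen XVII link the keratin network to laminin. In the male tract they are found in the seminal vesicle, the prostate and the epididymis, and can be told from the secretory or absorptive cells above them by these genes.

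The labelled tissue was first set against its markers. The 8 genes of seminal vesicle secretion on the list used here (the *Svs* genes and *Pate4*) summed to 8.06 CPM (UMIs of the gene per 1000000 UMIs summed over the cells) in the young and 7.83 CPM in the old basal cells, against a *Svs5* median of 118145 CPM in the basal cells of the diet pool. A list of 16 genes of the epididymal principal cell summed to 8611 CPM in the young and 25268 CPM in the old basal cells. In the epithelial cells of the same libraries that failed the basal rule (cells with *Epcam* and *Krt8* or *Krt18*, named the epithelial gate), this list summed to 103234 and 126985 CPM. The libraries of both mice thus held the RNA of epididymal epithelium and nearly none of seminal vesicle secretion, whatever their label, and the cells are called basal cells here without an organ. *Tgm4*, a prostate gene, had 0 and 0.174 CPM, and 6 urothelium genes summed to 5.43 and 12.3 CPM.

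Basal cells made up 25.8% of the 9164 cells passing the limits in the young mouse (exact binomial interval 24.9 to 26.7%) and 20.6% of 9113 in the old mouse (19.8 to 21.5%). The intervals cover counting error only. In the diet individuals the same rule found 374, 284 and 244 cells, 8.88, 7.38 and 6.64% of their cells, a mean of 7.63% ± 1.14 (SD, n = 3). Both mice thus had a larger share of basal cells than the 3 diet individuals, a description without a test, in libraries that also differ in tissue RNA. Dissociation and capture set these shares as well as the tissue does.

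All 4 markers were seen in 467 young and 284 old members, 3 of them in 1083 and 907, and exactly 2 in 814 and 687. The most common combination was *Krt5*, *Krt14* and *Krt15* without *Trp63*, in 916 young cells (38.7%) and 687 old cells (36.6%). *Krt14* was seen in 96.6% of young and 96.4% of old members, against 1.10 and 1.51% of fibroblasts (cells with at least 2 of *Dcn*, *Lum*, *Col3a1* and *Pdgfra*, named the fibroblast gate). *Trp63*, a transcription factor of low count, was seen in 29.5 and 29.2%. At the edge of the rule, cells with exactly 2 markers had 1280 and 1122 CPM of *Krt17*, a basal keratin outside the rule, cells with 1 marker had 484 and 279 CPM, and cells with none had 6.80 and 7.40 CPM. The rule therefore left out some cells that carry basal genes at a lower level, 406 young and 572 old cells with 1 marker. Among all deposited barcodes, members or not, the young and old libraries shared 30, against 6 to 24 for other pairs of the single-mouse libraries.

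The members summed to 5708093 UMIs in the young and 5749035 UMIs in the old mouse, with a median of 1914.5 UMIs and 959 genes per young cell and 2289.5 UMIs and 1117 genes per old cell. Members in the diet individuals were shallower, at medians of 1292.5, 1164 and 1191 UMIs and sums of 833200, 515374 and 530831 UMIs. The levels of the young and old basal cells are thus the most deeply measured of the 5 single-mouse sums.

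Genes that the rule did not use set the members apart in the same way as its markers, and the folds that follow are descriptions because the rule made this contrast. Each fold is over all other cells of the same library, after 1 CPM was added to both, and the lower of the 2 mice is given. *Lgals7*, a galectin of stratified epithelia, had 402 CPM in the young and 214 CPM in the old basal cells, a fold of 35.8. *Adh7*, an alcohol dehydrogenase that oxidises retinol, had 246 and 291 CPM and a fold of 29.5. *Fxyd3*, a regulator of the sodium pump, had 1797 and 1272 CPM and a fold of 28.6. Keratins 17 and 16 followed at folds of 26.4 and 24.2, collagen XVII (*Col17a1*) at 23.4, the laminin chain *Lamb3* at 22.1 and *Nrg1*, a ligand of ErbB receptors, at 22.0. *F3*, the tissue factor that starts coagulation, had 1563 and 2231 CPM and a fold of 16.1, and *Sfn* (14-3-3 sigma) had 3014 and 2898 CPM. These genes of attachment, epithelial stratification and surface signalling stood high in both mice.

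*Apoe* was the most abundant RNA of these cells. The apolipoprotein, which carries lipid between cells, made up 3.40% of all UMIs of young members and 2.48% of old members, 34022 and 24831 CPM. Epithelial-gate cells had 1334 and 757 CPM of *Apoe* and fibroblasts 3728 and 2967 CPM, and *Apoe* was seen in 100% of young and 99.7% of old members. *Apoc1*, the neighbouring apolipoprotein gene, had 584 and 544 CPM.

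**Figure D1:**
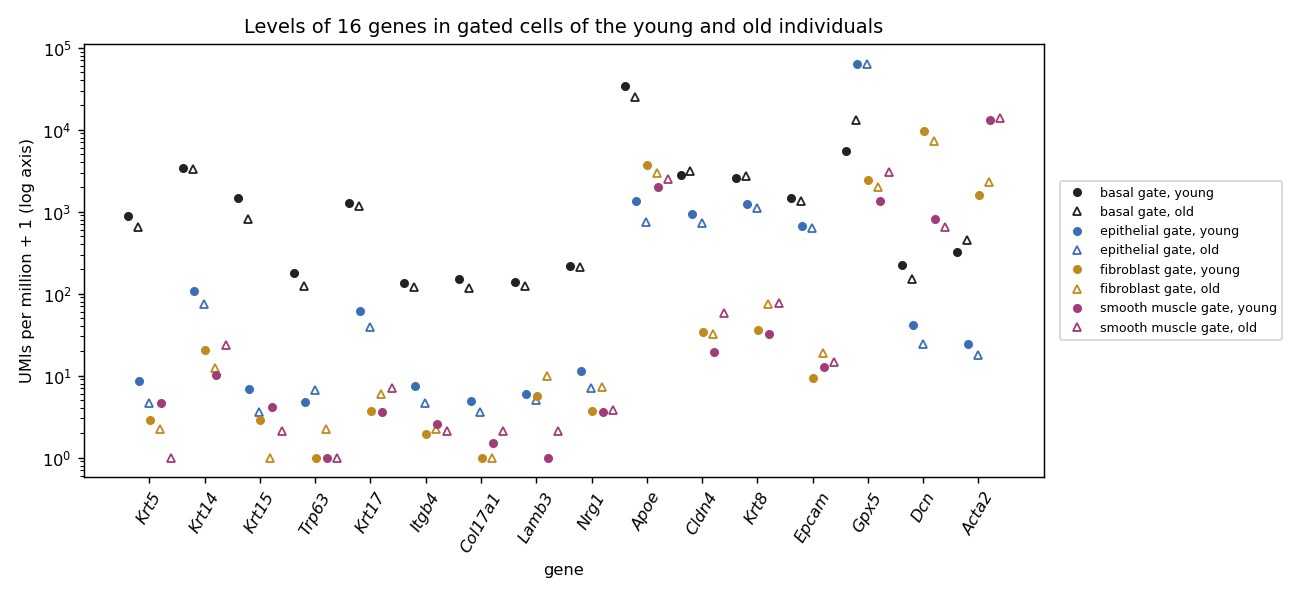
CPM plus 1 (log axis) of 16 genes in cells of the basal, epithelial, fibroblast and smooth muscle gates, with 1 point for each gate in the young (filled circles) and the old mouse (open triangles). The 4 markers of the rule, Krt17, Itgb4, Col17a1, Lamb3 and Nrg1 stand higher in the basal gate than in every other gate of both mice, Apoe does too, and Gpx5, Dcn and Acta2 are highest in the epithelial, fibroblast and smooth muscle gates.

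Most attachment genes stood above the other cells. Of 18 genes of hemidesmosomes and basement membrane, 15 were higher in the basal cells than in the other cells of both libraries, where 44.4% of the 10018 genes with at least 50 UMIs in the members were. *Itga6* and *Itgb4*, the 2 chains of the hemidesmosomal integrin, had 286 and 133 CPM in young and 284 and 120 CPM in old basal cells. The laminin chains *Lama3* and *Lamb3* had 86.2 and 139 CPM in the young and 72.4 and 123 CPM in the old mouse. Of 10 desmosome genes, which join neighbouring cells, 8 stood above the other cells of both libraries (7 of the 8 with at least 50 UMIs), led by *Perp* at 547 and 547 CPM and *Dsp* (desmoplakin) at 434 and 366 CPM. *Dsg3*, the desmoglein of stratified squamous epithelium, was at 0 in both.

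The basal cells also carried genes that are often taken as luminal. *Krt8*, a keratin of simple epithelium, had 2601 CPM in young and 2688 CPM in old basal cells, above the 1241 and 1117 CPM of the epithelial gate. Epithelial-gate cells were deeper, at medians of 6111 and 7310 UMIs, so these levels compare shares of RNA and not UMIs per cell. *Cldn4*, a claudin of tight junctions, had 2765 and 3093 CPM against 948 and 730 CPM in the epithelial gate, and 33.0 and 31.5 CPM in fibroblasts. Other claudins went the other way. *Cldn3* had 79.2 and 116 CPM against 444 and 405 CPM in the epithelial gate, and *Cldn7* had 197 and 221 CPM against 635 and 527 CPM. *Krt6a*, *Krt4*, *Krt13* and *Krt20*, keratins of hyperproliferative, stratified or urothelial cells, were at or near 0.

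Among transcription factors, 12 of 16 epithelial factors stood above the other cells in both mice (11 of the 14 with at least 50 UMIs, against the 44.4% of all genes), among them *Klf5* (397 and 367 CPM), *Ehf* (342 and 308 CPM) and *Sox4* (536 and 643 CPM). Of 18 regional factors, which mark positions along the body or the urogenital ducts, *Hoxb9* had 111 and 104 CPM, *Pax2* 37.0 and 24.9 CPM and *Pax8* 34.9 and 37.1 CPM. *Hoxa13*, *Hoxb13* and *Hoxd13*, factors of the most posterior positions, had no UMI in either sum. The oestrogen receptor *Esr1* had 45.0 and 46.4 CPM.

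Ligands followed. *Hbegf*, a ligand of the EGF receptor, had 1303 CPM in the young and 1028 CPM in the old mouse, and *Nrg1* had 214 and 209 CPM against 10.4 and 6.06 CPM in the epithelial gate. *Fst* (follistatin, which binds and blocks activin) had 937 and 758 CPM. The Notch ligands *Jag2*, *Jag1* and *Dll1* had 136, 85.7 and 60.1 CPM in the young and 104, 91.7 and 65.4 CPM in the old mouse, beside *Notch1* at 85.5 and 65.9 CPM. *Wnt4* had 95.1 and 88.2 CPM and *Wnt10a* 47.3 and 28.5 CPM. Proliferation genes were nearly silent in the sums, with *Mki67* at 1.93 and 2.96 CPM and *Top2a* at 3.50 and 8.70 CPM.

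Clustering of the 4242 members (Leiden method on 2000 variable genes, the 4 markers left out) gave 19 subclusters. A finer resolution gave 24, so their number follows the setting. In 8 of them, with 3613 cells or 85.2% of members, the leading genes were not those of another cell class, as judged from them after clustering, and these fell into 2 broad states and a small cycling group. In subcluster 3 the spermatid genes *Tnp2*, *Prm1* and *Prm2* came first by ratio, from 0.250, 0.125 and 0.375% of its cells, ahead of *Angptl4*, *Igfbp4* and *Slc38a5*. All of the following compares clusters on genes that formed them, so it is a description.

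The larger state, subclusters 1, 2, 5 and 9, held 2245 cells, 50.3% of young and 56.2% of old members. It was rich in *Krt8* (4370 CPM), *Krt14* (4965 CPM), *Cldn4* (5234 CPM) and *Fst* (1605 CPM). Within it, subcluster 2 (826 cells) had 1033 CPM of *Plaur*, the receptor of urokinase, against 157 CPM in the other members, 1425 CPM of *Ctgf* against 272 CPM, 5300 CPM of *F3* against 1245 CPM and 1013 CPM of *Sprr1a*, a cornified envelope gene, against 182 CPM. Subcluster 5 (312 cells) was led by *Trem2*, a lipid receptor, at 323 CPM and by the inhibitors of differentiation *Id1* and *Id3* at 364 and 638 CPM, and 265 of its cells came from the young and 47 from the old mouse. Subcluster 9 (76 cells) had 4766 CPM of *Slpi*, a secreted protease inhibitor, against 77.2 CPM in the other members.

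The other state, subclusters 3, 4 and 8, held 1353 cells, 36.3% of young and 26.4% of old members. *Slc38a5*, a glutamine transporter, had 3740 CPM here against 380 CPM in the larger state, and *Fxyd3* had 3032 against 1151 CPM. Subclusters 3 and 8 carried both, since subcluster 4 had 663 CPM of *Slc38a5* and 1206 CPM of *Fxyd3*. *Trp63* had 300 against 105 CPM and the immediate early gene *Fos* 4883 against 280 CPM. Its *Krt8* and *Cldn4* were lower, at 1331 and 1029 CPM. *Apoe* was high in both states, at 39360 CPM here and 35019 CPM in the larger state. Subcluster 4 (449 cells) had among its leading genes *Fos* (7192 CPM), *Egr1* (3520 CPM) and *Ier2* (1707 CPM), all genes induced within minutes of stimulation or of dissociation, and subcluster 8 (105 cells) was led by *Apoc1* (7515 CPM). Subcluster 18, with 5 young and 10 old cells, was the only one of the 8 led by genes of cell division, with 581 CPM of *Top2a* and 370 CPM of *Birc5*.

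**Figure D2:**
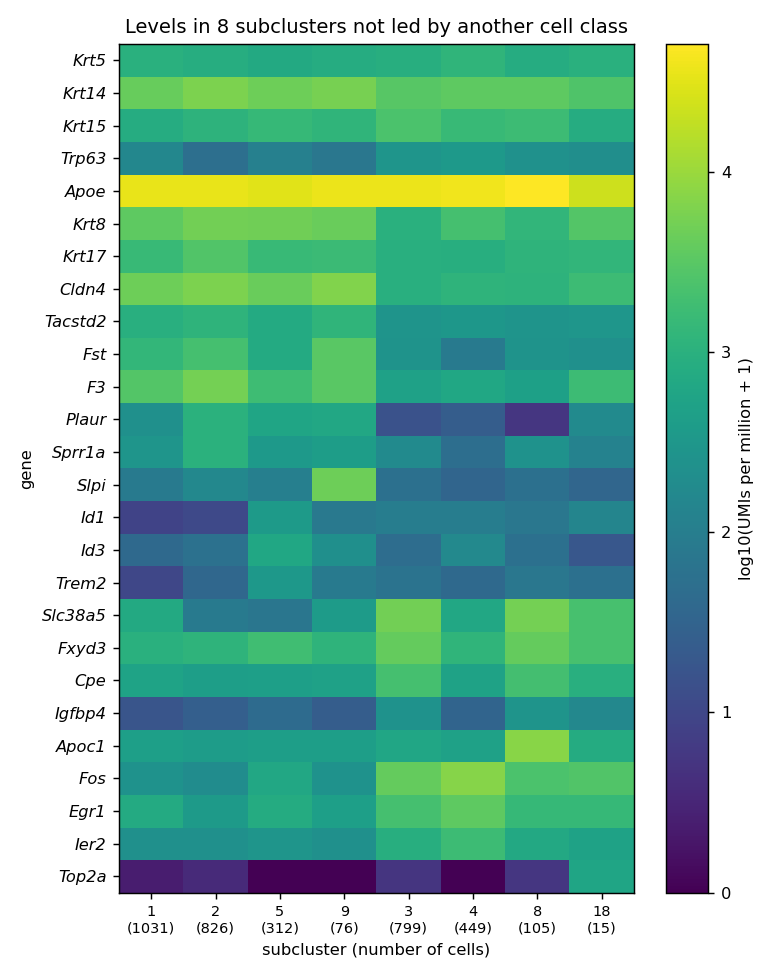
Colour gives log10 of CPM plus 1 for each gene shown (vertical) in the 8 subclusters not led by genes of another cell class (horizontal, with the number of cells of both mice). Krt8, Cldn4, Fst and F3 stand high in subclusters 1, 2, 5 and 9, and Trp63 and Fos stand higher in 3, 4 and 8 than in these. Fos is also high in 18. Slc38a5 and Fxyd3 are highest in 3 and 8, and Top2a is high in subcluster 18 alone.

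The other 11 subclusters held 629 cells, 13.2% of young and 16.8% of old members, and their leading genes were those of another cell class beside basal markers. They had a median of 3937 UMIs per cell against 1987 and 2092 in the 2 basal states, and 66.6% of them had a high doublet score (likeness to 2 simulated cells in 1 droplet), against 0.312 and 0.443%. Subcluster 7 had 58022 CPM of *Gpx5* and subcluster 10 had 28589 CPM of *Lcn8*. Subcluster 6 was led by the smooth muscle genes *Cnn1* and *Des*, 17 by *Mustn1* and *Sncg*, with 8300 CPM of *Acta2*, 13 by *Col6a5* and *Lum*, 15 by *Ccl4* and *Il1b* (with *C1qa* and *Cd74* in its first 10), 16 by *Ccl21a* (in 9.09% of its cells) and *Flt1*, and 19 by hemoglobin. The rule thus admits droplets with RNA of another cell class, and many of the young and old values below are also given without these 11 (the 3613 other members).

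Between the ages, levels were close for most genes. Of 10018 genes with at least 50 UMIs over both sums, 258 were at least 2-fold higher in the old basal cells (2.58%) and 58 at least 2-fold lower (0.579%), 3.15% in all. With 1 mouse per age there is no test, and the intervals of the ratios below (exact binomial, 95%) cover counting error only. Without the 11 subclusters led by other cell classes, 59 genes were higher and 49 lower of 8740. Of the 258 genes, 94 still had enough UMIs to be compared and 36 of them stayed at least 2-fold higher, and of the 58 genes 35 were compared and 18 stayed at least 2-fold lower.

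Epididymal principal cell genes were the group with the most genes past this limit. Of 15 such genes with enough UMIs, 13 were at least 2-fold higher in the old basal sum, with a median ratio of 4.25. Without the 11 subclusters the median ratio was 1.80 over 14 such genes, which then summed to 847 CPM in the young and 1452 CPM in the old cells. *Lcn8*, a lipocalin of the proximal epididymis, went from 309 to 2953 CPM, a ratio of 9.54 (9.09 to 10.0), and *Lcn9* from 78.5 to 1228 CPM. Subcluster 10, led by other-class genes, held 1256 of the 1766 young and 14331 of the 16977 old UMIs of *Lcn8*. In subclusters 1, 2 and 3 *Lcn8* had 39.4 and 139, 52.7 and 129, and 201 and 262 CPM. In subcluster 18 it had 1 UMI in each mouse. *Gpx5*, the secreted glutathione peroxidase of the epididymis, had 5497 and 13198 CPM in the basal sums and 63711 and 63934 CPM in the epithelial gate. In fibroblasts the whole list summed to 3442 and 5121 CPM, with *Lcn8* at 44.9 and 995 CPM and *Gpx5* at 2455 and 1991 CPM, so that *Gpx5* was lower there in the old mouse. Within subcluster 1 *Gpx5* was at 227 and 393 CPM. How much of the RNA in the basal sums is free RNA, how much comes from doublets and how much the basal cells make was not tested.

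Some of the most extreme ratios rest on few cells or on blood. *Prm1*, a protamine of spermatids, had 2.98 and 61.1 CPM, and 98.6% of its old UMIs were in 1 cell. *Hbb-bs*, a beta globin, had 525 CPM in the young and 4.0 CPM in the old basal cells, and 1456 and 36.6 CPM in fibroblasts. *Spink2* (9.64 and 81.1 CPM), *Spint4* (408 and 102 CPM) and *Spint5* (216 and 51.5 CPM) had 32.4, 29.7 and 32.6% of the UMIs of their higher sum in 1 cell. Without the subclusters led by other classes *Spink2* was lower in the old mouse.

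*Id1* and *Id3* were more than 2-fold lower in the old mouse. *Id1*, a dominant inhibitor of helix-loop-helix factors and a target of BMP signalling, had 121 CPM in the young and 17.6 CPM in the old basal cells, a ratio of 0.145 (0.117 to 0.179). It was lower in other old cells too, at 302 and 183 CPM in fibroblasts and 50.7 and 3.60 CPM in the epithelial gate, a log2 difference of -3.81 there against -2.78 in the basal cells. *Id3* had 227 and 97.1 CPM, a log2 difference of -1.23, against -1.57 in the epithelial gate, and *Id2* 148 and 91.7 CPM, a ratio of 0.618. Without the 11 other-class subclusters the ratios of *Id1*, *Id3* and *Id2* were 0.151, 0.271 and 0.370. *Id1* was lower in the old cells within each of the 8 subclusters, at 125 and 50.3 CPM in subcluster 3, 117 and 50.1 CPM in subcluster 4, and 441 and 0 CPM (216 and 0 UMIs) in subcluster 5.

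*Txnip*, an inhibitor of thioredoxin and of glucose uptake, had 711 and 305 CPM, a ratio of 0.429, whereas its log2 ratio in fibroblasts was 0.12. It was lower in the old cells of subclusters 1, 2, 3, 4 and 8 (in subcluster 3, 1483 and 806 CPM), and higher in 5, 9 and 18, where few UMIs were seen. *Smad7*, an inhibitor of TGF beta signalling, had 117 and 66.5 CPM, *Klf4* 617 and 352 CPM and *Nfkbiz*, a regulator of NF-kappa B, 182 and 79.8 CPM. Without the 11 subclusters the ratios of *Txnip*, *Smad7*, *Klf4* and *Nfkbiz* were 0.390, 0.627, 0.551 and 0.439.

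Of the keratins of the rule, *Krt15* and *Krt5* were lower in the old mouse, by less than 2-fold, and *Krt14* was nearly level. *Krt15* had 1479 and 813 CPM, a ratio of 0.550 (0.530 to 0.570) and of 0.632 without the 11 subclusters, *Krt5* 873 and 648 CPM and *Krt14* 3434 and 3352 CPM. Without the 11 subclusters the ratio of *Krt5* was 0.857 and that of *Krt14* 1.15, so *Krt14* was then higher in the old mouse. *Krt15* was lower in the old cells within each of the 8 subclusters, for instance 2683 and 1797 CPM in subcluster 3 and 947 and 731 CPM in subcluster 1. In subcluster 18 this rests on 18 and 29 UMIs (1084 and 722 CPM). After each cell was thinned to 1000 UMIs, *Krt15* was seen in 62.9% of young and 49.2% of old cells, *Krt5* in 58.0 and 51.8% and *Krt14* in 89.1 and 85.5% (unthinned 78.3 and 70.9%, 81.0 and 82.0%, and 96.6 and 96.4%), with 43 young and 11 old cells left out as shallower. *Trp63* had 180 and 123 CPM in the sums, but its order varied between subclusters. It was lower in the old cells of subclusters 3 (319 and 227 CPM) and 8 (252 and 234 CPM), near level in subcluster 4 (345 and 348 CPM), and higher in the old cells of subclusters 1 (144 and 158 CPM), 2 (44.2 and 56.3 CPM), 5 (93.9 and 182 CPM) and 9 (65.4 and 79.7 CPM), in the last from 6 UMIs in each mouse. In subcluster 18 it had 7 and 5 UMIs.

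Immediate early genes were lower in the old basal cells as a group. The 19 genes of the list summed to 26952 CPM in the young and 19724 CPM in the old mouse, with a median ratio of 0.748 and none past the 2-fold limit. The same list summed to 43119 and 43899 CPM in fibroblasts, but was also lower in the old mouse in the epithelial gate, at 10653 and 8478 CPM, and in all other cells together, at 20361 and 14433 CPM. Without the 11 subclusters the basal sums were 27838 and 21305 CPM, with a median ratio of 0.776. *Egr1* had 1702 and 881 CPM, a ratio of 0.517, *Fos* 2930 and 1523 CPM, and *Socs3*, a feedback inhibitor of cytokine signalling, 486 and 266 CPM. Their ratios without the 11 subclusters were 0.535, 0.460 and 0.50. *Jund* had 1608 and 1815 CPM. The basal state rich in *Fos* was also a smaller share of the old cells, and within it *Fos* had 4647 and 2878 CPM in subcluster 3 and 7446 and 6564 CPM in subcluster 4. These genes also answer dissociation, whose part was not tested.

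A few basal genes were higher in the old mouse. *Mmp7* (matrilysin, a matrix protease of epithelia) had 3.21 times its young level once the other-class subclusters were left out, at 56.0 and 180 CPM, and was higher in each of the 8 subclusters, for instance 102 and 425 CPM in subcluster 3. *Sprr1a* had 224 and 407 CPM in all members, below the 2-fold limit, and 262 and 556 CPM without the other-class subclusters. *Nqo1*, a quinone reductase induced by oxidants, had 6.48 and 21.9 CPM in all members, a ratio of 3.38 (2.33 to 5.02) and of 4.27 without the 11 subclusters, the only antioxidant gene past the fold. *F3* was seen in 59.1% of young and 71.6% of old cells thinned to 1000 UMIs, and *Cldn4* in 76.4 and 85.6% (unthinned 72.8 and 87.0%, and 87.5 and 95.4%). The *Cldn4* sums differed little, at 2765 and 3093 CPM. *Cldn4* was lower in the old cells of subclusters 2 (6302 and 5959 CPM) and 5 (4381 and 4215 CPM), and higher in the rest of the 8.

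In other groups few genes passed the fold. Low counts past it were *Il33* (a ratio of 2.17), *Tnf* (4.38 and 9.22 CPM), *Cdkn2b* (4.20 and 9.74 CPM) and *Top2a* (3.50 and 8.70 CPM). The claudin *Cldn10*, which stood higher in the epithelial gate, had 8.23 and 44.2 CPM, and the factor *Tfap2c* had 12.3 and 5.39 CPM. The lists of hemidesmosome and desmosome genes had median ratios of 0.945 and 0.868, and of 1.02 and 0.925 without the 11 subclusters. Antigen presentation genes had a median ratio of 0.875, with *B2m* at 1414 and 1122 CPM and *H2-K1* at 1364 and 1218 CPM. *Cdkn1a*, an inhibitor of cyclin-dependent kinases, had 383 and 291 CPM, and *Cdkn2a*, a marker of senescence in many tissues, had 1.05 and 0 CPM.

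**Figure D3:**
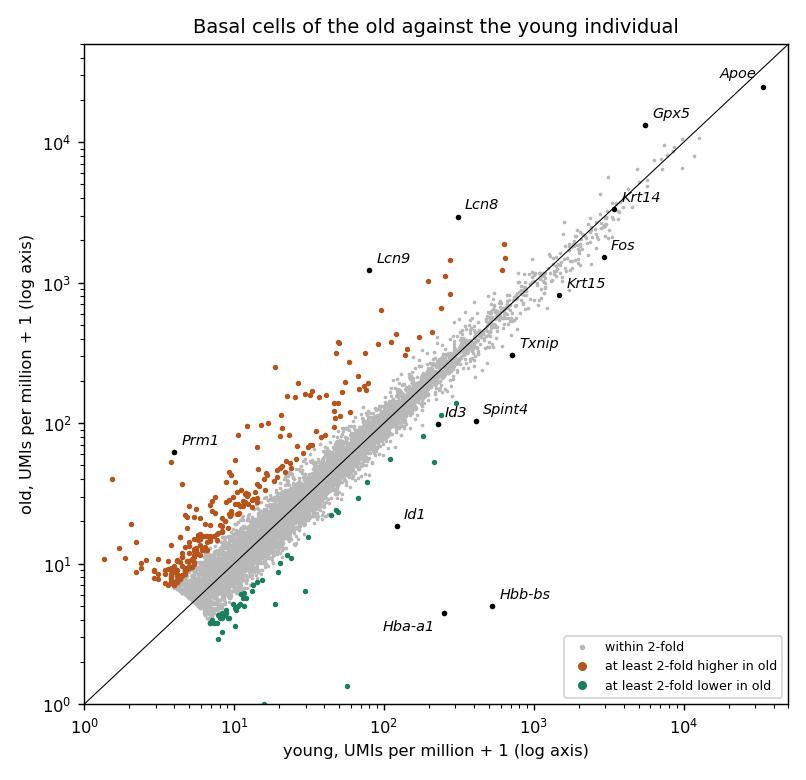
CPM plus 1 of each gene with at least 50 UMIs over both sums, in young (horizontal) and old (vertical) basal cells, on log axes with the line of equal levels. Orange marks the 258 genes at least 2-fold higher in the old sum, green the 58 at least 2-fold lower, grey the rest, and black the named genes, among which Lcn8, Lcn9, Gpx5 and Prm1 lie above the line and Id1, Txnip, Hbb-bs and Hba-a1 below it.

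Markers of other cell classes in the member sums were as follows. The 6 fibroblast genes summed to 424 and 428 CPM (27282 and 27545 CPM in the fibroblast gate), the 6 smooth muscle genes to 735 and 1209 CPM, with *Actg2* at 57.6 and 269 CPM. The 6 endothelial genes summed to 37.3 and 27.0 CPM, the 6 macrophage genes to 38.2 and 51.1 CPM and the 5 T cell genes to 13.1 and 4.52 CPM. Hemoglobin genes summed to 833 and 7.83 CPM and the 6 spermatid genes to 7.71 and 165 CPM.

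The same rule was then used in the 3 diet individuals, to ask how the basal cells of the young and the old mouse, taken as 1 group of 2 libraries, differed from those of libraries rich in *Svs* RNA. UMIs were summed over members per library, normalised with TMM factors, and tested with edgeR's quasi-likelihood method with Benjamini-Hochberg adjustment over all genes. The 2 groups differ in sequencing run and organ RNA at once, and these cannot be told apart. They also differ in age by the old mouse, and in diet by the high fat and low protein individuals. The young mouse and the control diet individual shared their age and diet, and the parts of age and diet were not tested. Of 7336 genes tested, 823 were higher in the young and old basal cells (11.2%) and 756 lower (10.3%), 21.5% in all. The diet pool as an alternative gave 1856 higher (20.2%) and 1848 lower (20.1%) of 9176, 40.4% in all. When scaled by library size alone the split was 3122 higher and 291 lower. The median log2 difference over all genes then moved from 0.01 to 0.55, so the directions below are relative to TMM. Without TMM, the 8 seminal vesicle genes summed to 288987, 238318 and 310215 CPM in the control, high fat and low protein basal sums. In the young and old sums they had 8.06 and 7.83 CPM. Their part in the shift was not tested. Of the genes higher, 345 (41.9%) had a still higher level in the epithelial gate of the same libraries, and 61 of the genes lower (8.07%) did so in the diet individuals. All values below are TMM-normalised CPM, first the young and the old mouse, then the control, high fat and low protein diet individuals.

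None of the 4 markers of the rule was called, and since they chose the cells their levels are descriptions. *Krt14* had 2844 and 2762 CPM against 2734, 2994 and 2191 CPM. The adjusted p was 0.735 for *Krt14*, 0.750 for *Trp63*, 0.190 for *Krt15* and 0.0875 for *Krt5*. Against the diet pool *Trp63*, *Krt14* and *Krt5* were higher, with log2 differences of 1.91, 1.10 and 0.58. Members of the diet pool were deeper than those of all single-mouse libraries, at medians of 4995.5 to 8582.5 UMIs per mouse. They also held a median of 118145 CPM of *Svs5*. The part of depth and of luminal RNA in the differences from this pool, here and below, was not tested. No desmosome gene of 6 and no Wnt gene of 9 passed the test. With library size only, 3 of the 6 desmosome genes were higher, and against the diet pool 1 of 8 was.

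A transporter, a growth factor antagonist and an apolipoprotein were among the genes higher in the young and old basal cells. *Slc38a5* had 1415 and 1493 CPM against 10.1, 8.66 and 4.61 CPM, a log2 difference of 7.47 ± 0.21 (SE; adjusted p = 1.36e-08 in edgeR). It also stood at 2875 and 1807 CPM (not TMM-normalised) in the epithelial gate of the young and old mouse, whose part in the basal level was not tested. *Fst* had 776 and 624 CPM against 23.2, 58.4 and 27.7 CPM, a log2 difference of 4.31 ± 0.28 (adjusted p = 8.22e-06). *Apoe* had 28180 and 20460 CPM against 10414, 9659 and 9523 CPM, a log2 difference of 1.30 ± 0.16 (adjusted p = 0.000413). All 3 genes separate the groups with no overlap, but so did all 823 genes called higher, so this sets none of them apart. All 3 stayed higher when the 8 mice of the diet pool took the place of the diet individuals.

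A hormone receptor and epithelial factors moved with them. *Esr1* had 37.3 and 38.3 CPM against 8.69, 6.49 and 6.92 CPM, a log2 difference of 2.32 ± 0.27 (adjusted p = 0.000359), and *Sox4* 444 and 530 CPM against 210, 156 and 201 CPM. Both stayed higher against the diet pool. Of 14 epithelial factors tested, 4 rose (*Sox4*, *Klf4*, *Klf5* and *Elf3*) and *Id1* fell, beside 11.2 and 10.3% of all genes tested. *Klf4* and *Elf3* did not pass against the diet pool, at adjusted p of 0.390 and 0.223. *Cldn4* had 2291 and 2549 CPM against 1319, 1496 and 1280 CPM, a log2 difference of 0.83 ± 0.13 (adjusted p = 0.00181), and against the diet pool -0.17 (adjusted p = 0.431). *Cldn7* reversed between these 2 comparisons, with log2 differences of 1.73 and -1.18. Among 13 antioxidant genes 5 rose and *Prdx6* fell, beside the same shares of all genes, so that the share that fell is near that of all genes. *Txnrd1*, the thioredoxin reductase, had 350 and 363 CPM against 146, 132 and 122 CPM. *Gpx1*, a glutathione peroxidase among the 5, took the other sign against the diet pool, with a log2 difference of -0.49 (adjusted p = 0.161). Without the control diet individual *Klf5* and *Prdx6* did not pass, at adjusted p of 0.105 and 0.0638. *Hmox1* and *Prdx1*, which rose in the main comparison, did not pass then either, at adjusted p of 0.206 and 0.156.

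Of 19 immediate early genes 5 rose and 3 fell, beside 11.2 and 10.3% of all genes tested, so that the share that fell is near that of all genes. *Fosb* had 1978 and 1110 CPM against 164, 212 and 212 CPM, a log2 difference of 2.99 ± 0.24 (adjusted p = 3.5e-05), and *Socs3* had 402 and 219 CPM against 99.9, 108 and 94.6 CPM. The 3 that fell were *Ier3* and the heat shock chaperones *Hspa1b* and *Hsp90aa1*, with log2 differences of -0.64, -0.95 and -0.68, and the chaperones did not pass against the diet pool. Of those that rose, *Fos*, *Dnajb1* and *Zfp36* did not pass there either, at adjusted p of 0.0530, 0.0527 and 0.0637. *Egr1* and *Jun* did not pass, at adjusted p of 0.232 and 0.377. Without the control diet individual the calls of *Ier3*, *Fos*, *Dnajb1* and *Zfp36* were lost.

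**Figure D4:**
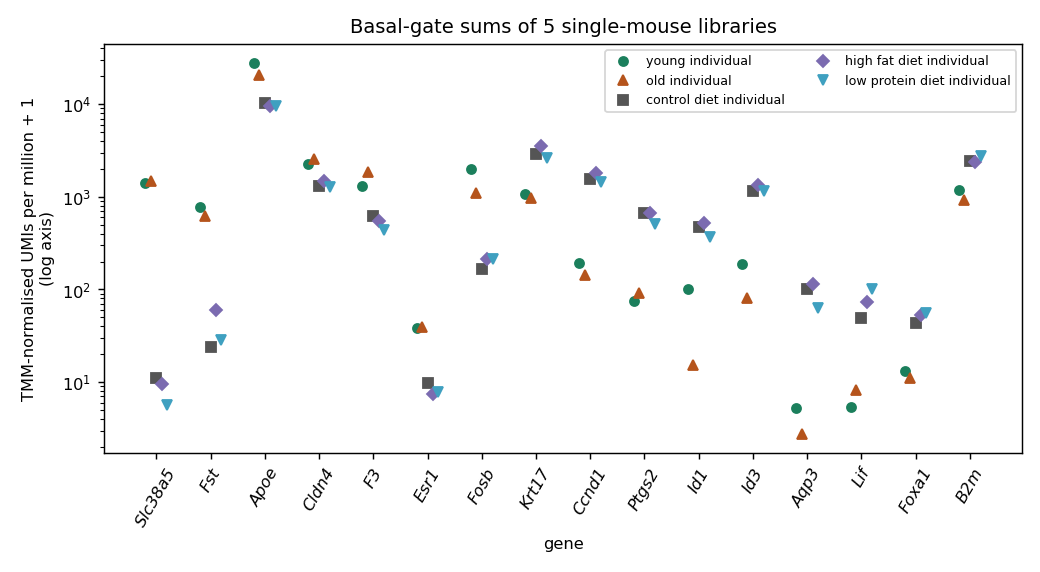
TMM-normalised CPM plus 1 (log axis) of 16 genes in the summed basal cells of 5 single-mouse libraries, 1 point for each library. The young and old mice lie above all 3 diet individuals for Slc38a5, Fst, Apoe, Cldn4, F3, Esr1 and Fosb, and below all 3 for Krt17, Ccnd1, Ptgs2, Id1, Id3, Aqp3, Lif, Foxa1 and B2m.

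Genes lower in the young and old basal cells included a cyclin, prostaglandin synthesis genes and an aquaporin. *Ccnd1* (cyclin D1) had 192 and 142 CPM against 1550, 1816 and 1448 CPM, a log2 difference of -3.26 ± 0.19 (adjusted p = 3.7e-06). *Ptgs2* (cyclooxygenase 2) had 74.9 and 89.9 CPM against 662, 675 and 503 CPM, a log2 difference of -2.90 ± 0.18 (adjusted p = 7.03e-06), though it did not pass against the diet pool (adjusted p = 0.123). *Aqp3*, a water and glycerol channel found in basal cells of several epithelia, had 4.21 and 1.72 CPM against 101, 115 and 62.3 CPM, a log2 difference of -4.97 ± 0.37 (adjusted p = 2.07e-05). *Ccnd1* and *Aqp3* kept their direction and call against the diet pool.

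*Foxa1*, a pioneer factor of endoderm-derived and prostate epithelium, had 12.3 and 10.0 CPM against 42.0, 52.0 and 55.4 CPM, a log2 difference of -2.13 ± 0.23 (adjusted p = 0.000226). The cytokine *Lif* had 4.35 and 7.17 CPM against 47.8, 71.4 and 101 CPM, and the EGF receptor ligand *Tgfa* 10.7 and 11.6 CPM against 39.1, 69.3 and 53.0 CPM. Of 7 EGF pathway genes, 3 fell (*Tgfa*, *Areg* and *Egfr*) and none rose, beside 10.3% of all genes that fell. *Id1* had 100 and 14.5 CPM against 471, 526 and 369 CPM, a log2 difference of -2.99 ± 0.62 (adjusted p = 0.0079), so that the young mouse lay between the old mouse and the diet individuals. *Foxa1*, *Lif*, *Tgfa*, *Areg* and *Id1* stayed lower against the diet pool, whereas *Egfr* had a log2 difference of 0.18 there (adjusted p = 0.699). Without the control diet individual *Id1*, *Areg* and *Egfr* no longer passed, at adjusted p of 0.0619, 0.0575 and 0.113, and with no filter on counts *Id1* did not pass either (adjusted p = 0.132).

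The counts of the next lists stand beside 21.5% of all genes called. Of 10 cytokine and chemokine genes tested, 5 fell (*Lif*, *Cx3cl1*, *Ccl2*, *Cxcl1* and *Cxcl16*) and *Cxcl10* rose, though *Ccl2*, *Cxcl1* and *Cxcl10* did not pass against the diet pool. Of 9 TGF beta and BMP genes, *Fst* rose, and the ligand *Tgfb1* and *Smad7* fell, the last not past the test against the diet pool. Of 6 Notch genes, *Notch1* rose and its ligand *Dll1* fell, whereas against the diet pool *Notch1* did not pass (adjusted p = 0.329) and *Dll1* rose (log2 difference 0.69, adjusted p = 0.0411). The TGF beta and BMP genes called, 3 of 9, and the Notch genes called, 2 of 6, are too few to set apart from that share. Without the control diet individual the calls of *Ccl2*, *Cxcl1*, *Cxcl10*, *Tgfb1*, *Notch1*, *Dll1* and *Scd2* were lost. Of 8 lipid and prostaglandin genes, *Apoe*, the desaturase *Scd2* and the prostaglandin D synthase *Ptgds* rose, and those that fell included *Ptgs2*, *Ptges* and the fatty acid carrier *Fabp5*. *Ptgds* stood higher in the epithelial gate of both mice than in the basal cells. *Gdf15*, a stress cytokine on the senescence list, had 161 and 132 CPM against 471, 593 and 436 CPM, and the opposite direction against the diet pool.

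Of the 7 other keratins tested, 4 fell and *Krt8* rose. *Krt17* had 1060 and 972 CPM against 2882, 3509 and 2652 CPM, a log2 difference of -1.57 ± 0.16 (adjusted p = 0.000135), and *Krt23* had 1.45 and 2.87 CPM against 42.0, 30.3 and 25.4 CPM. Against the diet pool *Krt23* fell again, whereas *Krt17* did not pass (adjusted p = 0.128) and *Krt7* and *Krt19* had differences of the other sign that did not pass. Of 18 hemidesmosome and basement membrane genes, 6 fell and 1 rose, whereas with library size only 3 fell and 8 rose. Against the diet pool 2 fell and 3 rose. There *Itga6*, *Lamc1*, *Col4a1* and *Itga2* did not pass, and *Plec*, with the opposite sign, did not either. The clearest was the integrin *Itga3*, a receptor of laminin, with 95.3 and 93.4 CPM against 268, 264 and 203 CPM, which was also lower against the diet pool. Its log2 difference of -1.38 became -0.68 with at least 1000 genes per cell, and did not pass there (adjusted p = 0.0632). *Itga6* had a log2 difference of -0.47 that turned positive under library-size scaling. Without the control diet individual *Krt8*, *Itga6*, *Lamc1* and *Itga2* did not pass.

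Most antigen presentation genes were lower than in the diet individuals, but many of these calls depend on the setting. Of 11 tested, 9 fell and none rose, with a median log2 difference of -1.28. *B2m*, the light chain of class I molecules, had 1171 and 924 CPM against 2468, 2405 and 2761 CPM, a log2 difference of -1.28 ± 0.15 (adjusted p = 0.000339), and *Psmb8* of the immunoproteasome had 45.6 and 39.8 CPM against 114, 128 and 131 CPM. *H2-D1* did not pass (adjusted p = 0.505). With no filter on counts *Cd74*, *H2-Aa*, *H2-Ab1*, *H2-K1*, *H2-Q4*, *H2-T23* and *Psmb9* lost their calls. With library size only, and with at least 1000 genes per cell, *H2-Aa*, *H2-K1*, *H2-Q4* and *H2-T23* did. Against the diet pool 1 of the 11 genes fell and 2 rose, and 5 of the 9 genes had the other sign. *B2m* was the gene that fell there too (adjusted p = 0.0444).

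**Figure D5:**
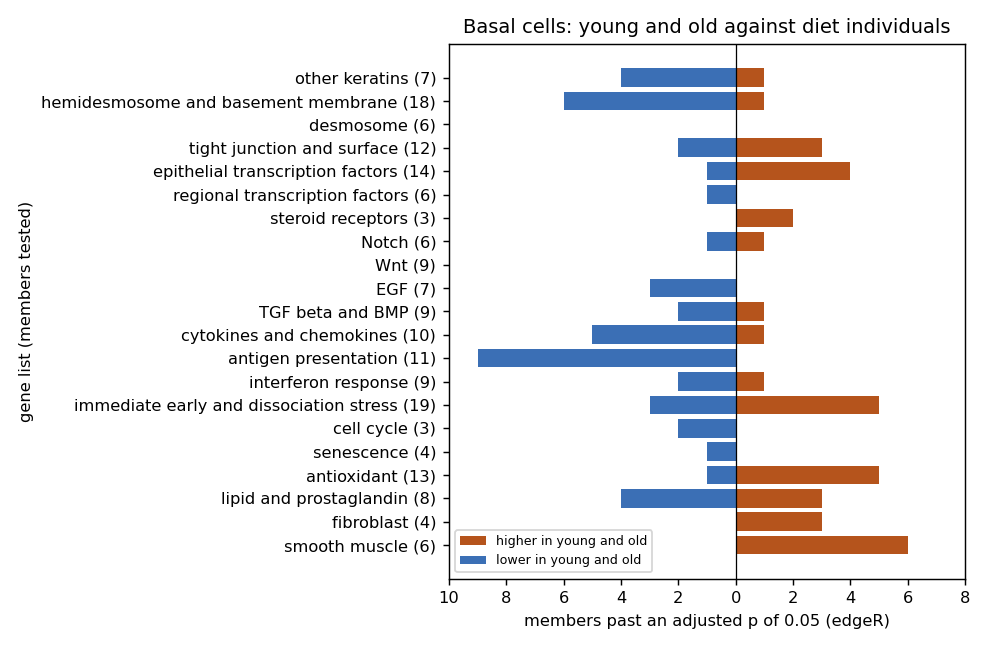
Number of genes of each list past an adjusted p of 0.05 (edgeR), to the right for those higher and to the left for those lower in the young and old basal cells than in the basal cells of the diet individuals, with the number of genes tested in parentheses. Antigen presentation has 9 genes lower and none higher, and smooth muscle markers have 6 higher and none lower.

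Markers of other cells moved between the groups as well. All 6 smooth muscle markers and 3 of 4 fibroblast markers tested were higher in the young and old basal sums. Without cells of high doublet score these were 2 of 5 and 1 of 4. All 15 epididymal genes were higher and all 8 seminal vesicle genes were lower. The last 2 lists describe the libraries and are no result about basal cells. The 10 named genes with the largest rise had no UMI in the diet sums and stood higher in the epithelial gate. Among them were *Spag11b* (2570 and 4638 CPM) and *Defb20* (2287 and 3545 CPM). Their epithelial-gate levels were 31838 and 23424 CPM, each the mean of the young and old libraries and not TMM-normalised. The genes with the largest fall, such as *Spink1* (0 and 0 against 5772, 5568 and 5477 CPM), were likewise higher in the epithelial gate of the diet individuals. The part of luminal RNA in other differences was not tested.

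Free RNA enters all cells of a library, so the difference between the library groups in basal cells was set against that in fibroblasts of the same 5 libraries by an interaction term, with the library as a block (edgeR). Of 8197 genes tested, the difference was more positive in basal cells for 444 (5.42%) and more negative for 470 (5.73%), 11.2% in all. *Fst* moved in opposite directions: in this fit it had 830 and 660 CPM in the young and old basal cells against 23.9, 59.9 and 27.8 CPM, and 140 and 72.3 CPM in fibroblasts against 324, 444 and 549 CPM, an interaction of 6.39 ± 0.29 in log2 (adjusted p = 3.31e-14). The lower *Ccnd1* was larger in basal cells by a log2 of -2.46 ± 0.30 (adjusted p = 1.24e-06), since fibroblasts had 49.0 and 32.3 CPM against 45.6, 78.5 and 112 CPM. For *Ptgs2* the interaction was -2.42 (adjusted p = 6.54e-09), with 530 and 429 CPM against 621, 898 and 437 CPM in fibroblasts, and for *Id1* it was -3.20.

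*Apoe* went the other way, with an interaction of -1.60 ± 0.21 (adjusted p = 3.69e-06). Fibroblasts had 3497 and 2617 CPM of it in the young and old mouse against 268, 564 and 397 CPM in the diet individuals, a wider difference than in the basal cells. *Nrg1* had 190 and 182 CPM against 137, 140 and 155 CPM in basal cells, but 2.58 and 5.56 CPM against 42.2, 51.5 and 33.1 CPM in fibroblasts, an interaction of 3.87 (adjusted p = 9.43e-07) that came from the fibroblasts. *Sox4* and *Cldn4* had interactions of 1.14 and 1.21. Of 19 immediate early genes, 1 was more positive and 9 were more negative in basal cells than in fibroblasts, and of 11 antigen presentation genes 5 were more negative and none more positive.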

How the data were processed

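Droplet libraries were made with the Chromium 3' V2 kit. The deposited count matrices held whole-number UMI counts per gene and cell barcode, filtered by the authors with Cell Ranger 3.1.0 for the 5 single-mouse libraries and 6.0.1 for the demultiplexed pools, on mm10; no read was aligned again. Of 11773 young and 10729 old barcodes, 9164 and 9113 passed the limits on genes and mitochondrial UMIs. Members, gene lists and tests were chosen with earlier results of these data known. Doublets were scored against simulated pairs (2 per cell) and kept.

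UMIs of members were summed per library. Sums were tested with edgeR 4.0.16 in R 4.3.3 (TMM, filterByExpr, glmQLFit and glmQLFTest, Benjamini-Hochberg, adjusted p under 0.05), with DESeq2 1.42.0 as an alternative. Each single-mouse library is 1 mouse, and p-values measure the spread among 5 libraries. Ratios of old to young used genes with at least 50 UMIs over both sums and had no test. Clustering used scikit-learn 1.9.0, igraph 0.11.9 and leidenalg 0.10.2 (Pearson residuals with theta 100, 30 components, 15 neighbours, resolution 0.5). Named genes were all genes of the lists by role, and the 10 with the largest change each way. On simulated counts, 100% of 179 genes changed by a log2 of 2 were recovered among 6728 tested in the comparison with the diet individuals, with 5.79% of calls unchanged genes, and 78% of 200 among 7658 in the comparison with fibroblasts, with 3.11%. Alternatives were other filters on cells and genes, scalings, gates and left-out libraries. Some genes of the lists are not reported here.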

Additional observations from a re-analysis of the deposited data

Results flagged for a closer look

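In basal cells of the diet pool, 1 mouse had 33.7% of its cells in the basal gate, with 20.1% in the next mouse, and 1 mouse had 289 CPM of *Id1*, with 163 CPM in the next. In the 9 mice of the aging pool of C57BL/6J mice with at least 10 basal cells, 1 mouse had 63.4 CPM of *Aqp3* in basal cells, with 26.9 CPM in the next. *Gpx5* had 0.213 CPM in 1 mouse of the diet pool and 0.200 CPM in 1 of these 9 mice and 0 in the others of each pool, which is 1 UMI in each case, so its distance from the zeros says nothing of expression. Each value lay farther from the rest of its pool than Dixon's 95% limit, which chance exceeds in about 1 of 20 groups.

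The difference between the young and old libraries and the diet individuals was itself different in basal cells and fibroblasts for 444 genes in one direction and 470 in the other (interaction term in edgeR, adjusted p under 0.05). The 10 most positive interactions, in log2, were *Slc6a2* 10.4, *Col8a1* 10.1, *Pcp4* 7.99, *Lgals7* 7.96, *Gm17416* 7.78, *Epdr1* 7.57, *Aff2* 7.51, *Tspan1* 7.30, *Dclk1* 7.13 and *Slc4a4* 6.94. The 10 most negative were *Egln3* -8.99, *Pou3f1* -8.18, *Tiam1* -7.80, *Tgfa* -7.77, *Lyz2* -7.57, *Tspan8* -7.17, *Tenm2* -7.11, *Slc25a13* -6.94, *Apoc1* -6.80 and *Ptpru* -6.55. Most of these rest on sums of 0 in one cell class of one library group, where the fitted size depends on the prior count. *Apoc1* is an example, with 518 and 473 CPM in the young and old basal cells, 164, 175 and 180 CPM in those of the diet individuals, and 22.4 and 23.4 CPM against 0, 0 and 0 in fibroblasts.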

How the results depend on the processing

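Of 10018 genes, the 258 at least 2-fold higher in old basal cells became 126 without cells of high doublet score, 59 without the subclusters led by other classes (a choice made after seeing the data) and 99 after thinning, and the 58 lower became 29 after thinning. Against the diet individuals, the 823 higher and 756 lower genes became 3122 and 291 with library size only, 334 and 267 with no filter on counts, 474 and 386 with at least 3 markers, 451 and 379 with at least 1000 genes per cell, and 1856 and 1848 against the diet pool. Leaving out 1 library gave 378 to 1016 higher and 383 to 859 lower genes, lowest without the control diet individual (378 and 383). Where the young or the old mouse was left out, the lone library was assumed to vary like the others. DESeq2 gave 686 and 750. Of the 1579 genes, 1560 were tested against the diet pool, and 996 were called there in the same and 33 in the opposite direction, both comparisons sharing the young and old sums.

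For the interaction with fibroblasts, the 444 and 470 genes became 774 and 327 with library size only, 211 and 312 with DESeq2, 248 and 303 with at least 3 markers, 34 and 65 with at least 1000 genes per cell, and 280 and 271 with at most 5% mitochondrial UMIs. Leaving out 1 library gave 255 to 415 and 274 to 438, lowest without the control diet individual (255 and 274), and 280 higher without the high fat individual. Of named genes, the log2 ratio of old to young reversed for *Defb23* (-0.0583 with at least 1000 genes, -0.0625 with at most 5% mitochondrial UMIs, -0.102 without high doublet scores), and without the other-class subclusters for *Spink2* (-0.356), *Lcn12* (-0.128) and *Lama3* (0.00917). The causes were not tested. The comparisons between libraries were not run without the subclusters led by other classes. Without cells of high doublet score they gave 764 higher and 725 lower genes against the diet individuals. No paired analysis was possible because each single-mouse library is the only one of its label, so that no number pairs mice between the groups (the block in the fibroblast comparison is the library itself).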

Other observations

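In the 2 pools, which entered no comparison above apart from the named alternative, the basal gate held 1023 cells in the diet pool (8.59 to 33.7% of the cells of a mouse, median 17.4%) and 449 in the aging pool of C57BL/6J mice (1.48 to 14.9%, median 9.04%). Median levels over the 8 mice of the diet pool and the 9 mice of the aging pool with at least 10 basal cells (the tenth had 8 and was left out) were 1.22 and 0 CPM of *Slc38a5*, 39.2 and 16.3 CPM of *Fst*, 2625 and 1186 CPM of *Apoe*, and 118145 and 161685 CPM of *Svs5*. *Apoe* was thus lower in the basal cells of both pools than in those of all 5 single-mouse libraries by these medians, and no test of that difference was made. Basal-gate cells of the pools were also deeper than those of the single-mouse libraries. Their medians per mouse were 4995.5 to 8582.5 UMIs in the diet pool and 7649.5 to 42762 UMIs in those 9 mice of the aging pool.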
